A study of Caenorhabditis elegans with 12 samples.

Results

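Feeding RNAi against bcat-1 was compared with the empty feeding vector L4440 in Caenorhabditis elegans of the strain CF1038, which carries the deletion daf-16(mu86). The comparison holds 6 of the 12 libraries of the study, 3 labelled bcat-1 and 3 labelled L4440, chosen by their strain label. All 6 were made from total RNA of whole hermaphrodites, labelled 5 days, and both groups carry the daf-16 deletion, so no worm in the comparison had an intact daf-16. The other 6 libraries come from the strain TU3311, fed daf-7 RNAi or the same vector, and enter only alternative fits. Libraries with neighbouring numbers, 1 and 2, 3 and 4, and 5 and 6, hold 1 vector and 1 RNAi library each and were treated as pairs 1, 2 and 3. Whether separate worm cultures were used is not stated in the labels, so p-values reflect variation among these libraries that may be technical.

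BCAT-1 moves the amino group of leucine, isoleucine and valine onto alpha-ketoglutarate, the opening step of branched-chain amino acid breakdown. The keto acids that result are oxidised in mitochondria by a dehydrogenase complex whose later steps feed the tricarboxylic acid cycle. DAF-16 is the FOXO transcription factor that signalling through the insulin receptor DAF-2 keeps out of the nucleus, and the comparison asks which transcripts differ under bcat-1 RNAi in worms that lack it. In an adult hermaphrodite the germline, with its oocytes, supplies a large part of the RNA, and gut, epidermis, muscle and neurons supply most of the rest. Neurons of worms without added sid-1 are known to take up fed double-stranded RNA poorly.

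Of 46748 gene identifiers 15124 had enough counts to be tested, and levels are given as CPM, counts-per-million scaled by TMM factors. A gene was called where its Benjamini-Hochberg adjusted p in the quasi-likelihood test of edgeR, with the pair as a block, was under 0.05. Changes are log2 differences, RNAi minus vector, followed by the SE. Libraries held 30130249 to 45343624 counts. Genes with at least 10 counts numbered 13542, 14693 and 14235 in the vector libraries and 15468, 15958 and 16028 in the RNAi libraries. After thinning all libraries to 30130249 counts the numbers were 13542, 13983 and 14044 against 14797, 15769 and 15136, still without overlap. Ribosomal RNA took 0.106, 0.293 and 0.138% of counts on vector and 0.245, 1.05 and 0.722% in the RNAi libraries, and the part of these library measures in the results was not tested. The embryo markers end-1 (0.0916 to 0.396 CPM) and sdz-38 (0.227 to 0.508 CPM) and the sperm gene msp-3 (0 to 1.34 CPM) were near 0 in every library. The wider list of early embryonic genes was not. Its 53 tested members summed to 811.9, 785 and 782.5 CPM on vector and 865.5, 819 and 772 CPM under RNAi, with a median log2 change of 0.30. Of these 13 rose (24.5%) and 4 fell (7.55%), beside 25.4% and 16.9% of all genes tested. The part of this list in the results was not tested.

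The target gene was not lower under its RNAi label. Its gene, WBGene00001149, lies on the plus strand of chromosome X from 12877480 to 12880328 in WBcel235. bcat-1 stood at 124, 140.4 and 128 CPM in vector replicates 1, 2 and 3, and the libraries labelled bcat-1 held 201, 161 and 213 CPM. Every library labelled bcat-1 thus lay above every vector library. The log2 change of 0.54 ± 0.12 was called (edgeR adjusted p = 0.0129), and over the alternatives the adjusted p ranged from 1.14e-05 to 0.212. The call was lost in the fit of all 12 libraries without the block. Counts cover whole genes and do not separate worm transcripts from reads of the fed RNA, so every direction below follows the labels as they stand. daf-16 itself stood at 80.8, 81.3 and 72.0 CPM on vector and 89.9, 80.6 and 89.3 CPM in the RNAi libraries, groups that overlapped, with a log2 change of 0.15 ± 0.10 (edgeR adjusted p = 0.247). Gene counts do not show which exons those reads cover.

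With pairs as a block, 6407 genes were called, 42.4% of those tested. Of these, 3848 rose (25.4%) and 2559 fell (16.9%), and 8153 genes (53.9%) had an unadjusted p under 0.05. The sides differed in kind. Rises were mostly in genes of low level, with a median log2 change of 0.98 and a median level of 2.96 CPM. Falls were mostly small, in abundant genes, with a median log2 change of -0.43 at a median level of 122 CPM. At a change of 2-fold or more 1859 genes rose (12.3%) and 101 fell (0.668%).

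**Figure D1:**
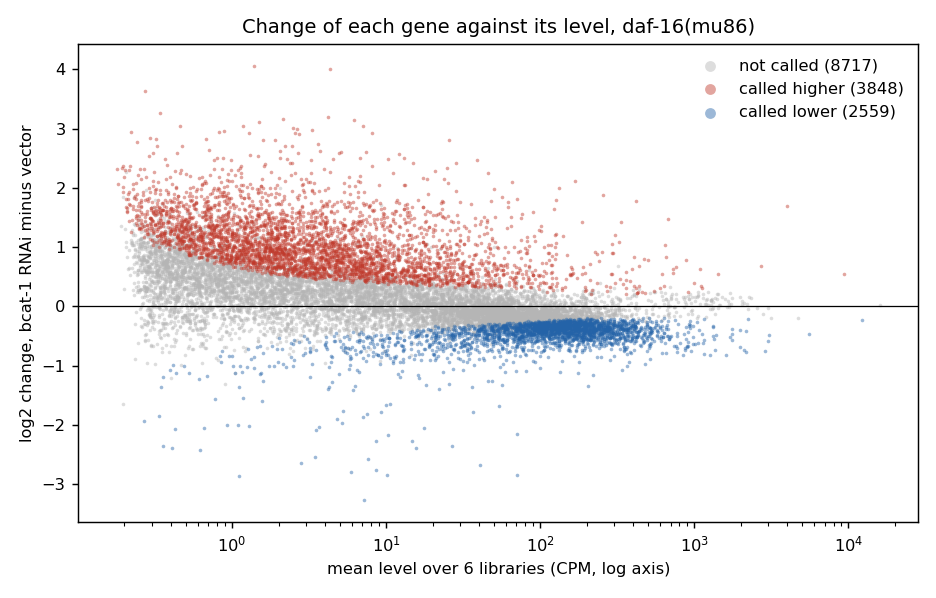
Log2 change of each of 15124 genes (bcat-1 RNAi minus vector, vertical axis) against its mean CPM over 6 libraries (log axis). Genes called higher (3848) spread upward at low levels, and genes called lower (2559) form a narrow band just under 0 at levels around and over 100 CPM.

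The small falls make up most of the lower side. Of the 2559 genes that fell, 2017 (78.8%) changed by less than 1.5-fold, with a median level of 138 CPM and a median SE of 0.083 on the log2 scale. None of those 2017 was called by the fit of all 12 libraries without the block, which called 24 genes lower in all and found 22 of the 2559. A further 441 (17.2%) fell by 1.5-fold to 2-fold, 75 by 2-fold to 4-fold and 26 by at least 4-fold. In 2498 of the 2559 the 3 RNAi libraries lay below the 3 vector libraries, a gap without overlap that 24.6% of all genes showed. Among rises 3503 of 3848 had no overlap, against 32.4% of all genes. These counts describe the called genes and do not add to the calls, which were made on the same libraries. The 12-library fit without the block found 683 of these 3848.

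The balance of the sides depended on how libraries were scaled to each other and on the tool. With TMM factors 60.1% of called genes were higher. The split was 1999 higher and 3563 lower with DESeq2 (35.9% higher). Within edgeR it was 3225 higher and 3605 lower with RLE factors (47.2% higher), 4753 and 1533 with upper-quartile factors (75.6%), and 5200 and 1285 with library totals (80.2%). The median change of all genes, 0.14 here, moved by -0.097, 0.14 and 0.16 with these 3 scalings. Under all 4 scalings 3225 genes rose (21.3%) and 1270 fell (8.4%), 791 of the latter by less than 1.5-fold. No gene called here was called in the opposite direction under any alternative run. Leaving out pair 1 lowered the counts to 2461 higher and 1052 lower, while 3617 and 3212 were called without pair 2 and 4423 and 2764 without pair 3.

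**Figure D2:**
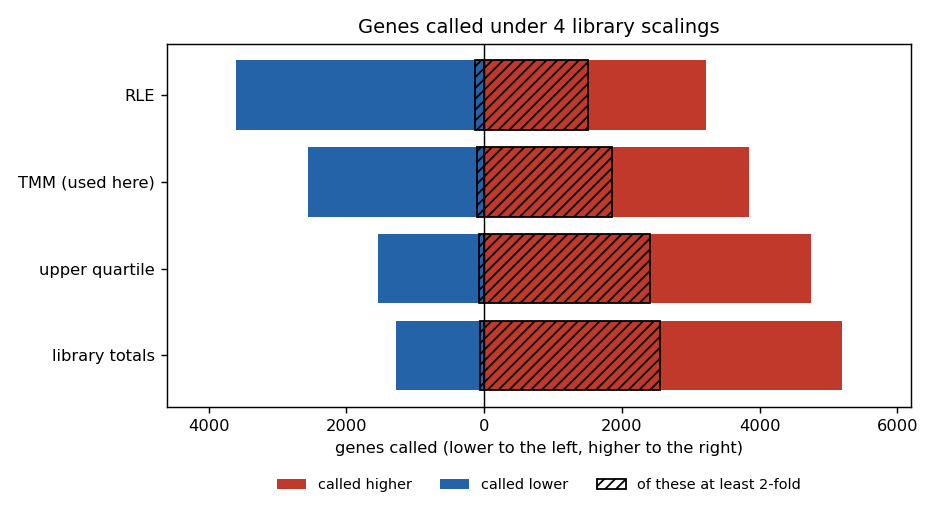
Number of genes called higher (right) and lower (left) under 4 ways of scaling the libraries, with the part changed by at least 2-fold hatched. The lower side shrinks from 3605 genes with RLE factors to 1285 with library totals, while the genes that fell by 2-fold or more stay few in each.

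Level and chromosome went with direction. Of 2656 genes over 100 CPM, 56.4% fell and 4.71% rose, and of 3735 genes at 20 to 100 CPM 21.0% fell and 11.4% rose. From 5 to 20 CPM the shares were 7.09% and 34.7%, from 1 to 5 CPM 2.22% and 45.8%, and under 1 CPM 0.767% and 31.3%. Each gene group below is read beside these shares. Genes on X, the chromosome known to be largely silent in the hermaphrodite germline, stood apart from autosomal genes of the same level. Over 100 CPM, 29.6% of 108 X-linked genes rose and 22.2% fell, against 3.35% and 58.0% of 2540 autosomal genes. From 5 to 20 CPM the gap was narrow, with 38.4% of X-linked and 33.7% of autosomal genes higher. Mitochondrial DNA was the other exception: 11 of its 14 tested genes rose and none fell, although 8 of them stood over 100 CPM. How far level, chromosome and gene group are separate from each other was not tested.

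**Figure D3:**
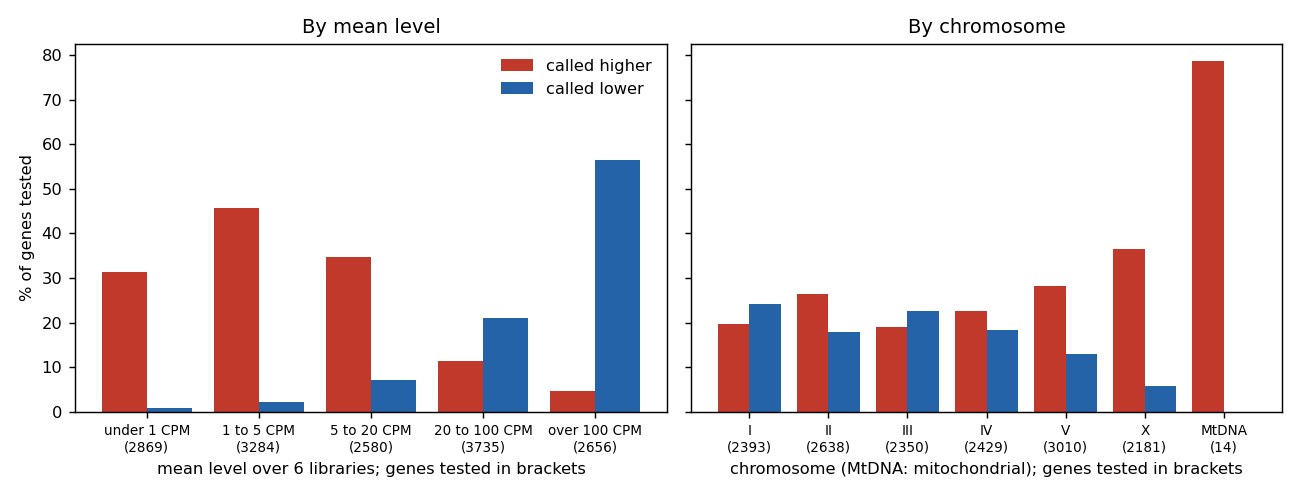
Share of tested genes called higher (red) and lower (blue) by mean level (left) and by chromosome (right), in percent. Falls reach 56.4% over 100 CPM, rises peak at 45.8% between 1 and 5 CPM, and X and the mitochondrial genome hold few falls.

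Germline and oocyte transcripts fell together. Of 39 genes of germline proliferation and P granules, the RNA-protein granules of germ cells, 35 fell and none rose (33 under all 4 scalings), with a median log2 change of -0.58. gld-4, a cytoplasmic poly(A) polymerase gene, stood at 504, 404 and 462 CPM on vector and 239, 222 and 191 CPM under RNAi (log2 -1.07 ± 0.090, edgeR adjusted p = 0.00327). Its highest RNAi library lay far under its lowest vector library. car-1 and cgh-1 encode partners in RNA granules that hold stored oocyte mRNA. car-1 went from 1762, 1575 and 1518 to 983, 939 and 819.9 CPM (log2 -0.83 ± 0.060) and cgh-1, a DEAD-box helicase gene, from 3026, 2533 and 2605 to 1730.0, 1542 and 1512 CPM (log2 -0.77 ± 0.057). Both were lower in every RNAi library than in any on vector. The germline helicase gene glh-1 (log2 -0.39 ± 0.063) and the P granule gene pgl-1 (-0.62 ± 0.072), markers of the tissue, fell less far.

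Of 32 oocyte and eggshell genes 26 fell and 1 rose (median -0.59; 24 fell under all 4 scalings). lin-41, whose TRIM-NHL protein holds growing oocytes in meiotic arrest, fell from 693, 585 and 609.6 CPM to 356, 296 and 316 CPM (log2 -0.97 ± 0.059, edgeR adjusted p = 0.00239). All 3 RNAi libraries were close to each other and far under the vector libraries. rme-2, the yolk receptor gene of oocytes, fell from 1671, 1419.8 and 1328 to 935, 758 and 834 CPM, a log2 change of -0.80 ± 0.068. The eggshell genes fell in step: cbd-1, a chitin-binding protein gene, by 0.74 ± 0.077, cpg-2, an eggshell proteoglycan gene, by 0.69 ± 0.070, cpg-3 by 0.74 ± 0.061 and the chitin synthase gene chs-1 by 0.89 ± 0.077 on the log2 scale. cey-2, a cold-shock-domain protein gene of the germline, fell by 0.73 ± 0.069. The exception was cav-1, a caveolin gene, which rose from 205, 166 and 244 to 432, 574 and 319 CPM (log2 1.08 ± 0.23, edgeR adjusted p = 0.0132), most in pair 2. Most members of both lists are abundant, and over 100 CPM 27 of 29 germline and 25 of 28 oocyte genes fell, beside 56.4% of all genes there. Fewer germ cells and less RNA per germ cell cannot be told apart in RNA of whole worms.

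Meiosis and cell division genes moved the same way by less. Of 58 genes of DNA replication and cell division 43 fell and none rose (27 under all 4 scalings and 27 without pair 1; median -0.35). The replicative helicase gene mcm-2 went from 512, 441 and 429 to 327, 301 and 295 CPM (log2 -0.58 ± 0.063), the polo kinase gene plk-1 changed by -0.54 ± 0.060 and the phosphatase gene cdc-25.1 by -0.62 ± 0.067. Of 45 meiosis genes 16 fell (7 under all 4 scalings; median -0.31), among them the cohesin genes rec-8 (-0.52 ± 0.086), him-1 (-0.47 ± 0.062) and scc-3 (-0.39 ± 0.063). Of 25 innexin genes, which form gap junctions, 7 rose and 2 fell (median 0.26). The falls were inx-14 (-0.39 ± 0.083) and inx-22 (-0.41 ± 0.10), both of germline gap junctions. Over 100 CPM 2 of 4 innexin genes fell, beside 56.4% of all genes. Sperm genes did not follow the meiosis genes. Of 31 sperm genes tested, which stood low, 5 rose and 3 fell. Their median change was 0.18, 0.81 and -0.081 in pairs 1, 2 and 3. The count of meiosis genes that fell was 9 without pair 1 and 30 without pair 3. Meiosis genes over 100 CPM had 13 falls among 16, beside 56.4% of all genes. At the level of 20 to 100 CPM only 3 of 27 meiosis genes fell, beside 21.0% of all genes. For DNA replication and cell division genes these counts were 36 of 44 and 7 of 13.

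The protein quality machinery fell as whole complexes. All 31 proteasome subunit genes tested fell (24 under all 4 scalings), over a narrow range of log2 changes from -0.63 to -0.28 with a median of -0.42. rpn-1, a scaffold subunit of the regulatory particle, went from 691, 571 and 624 to 434, 399 and 382 CPM (log2 -0.63 ± 0.066, edgeR adjusted p = 0.00327), its partner rpn-2 changed by -0.58 ± 0.066 and the ATPase subunit gene rpt-1 by -0.51 ± 0.061. The groups of rpn-1 did not overlap, and the step was alike in the 3 pairs. The 8 subunit genes of the cytosolic chaperonin, the ring that folds actin and tubulin, all fell too (median -0.58; 7 under all 4 scalings). cct-8 went from 333, 267 and 306 to 177, 183 and 139.9 CPM (log2 -0.86 ± 0.11), cct-6 changed by -0.69 ± 0.066 and cct-7 by -0.63 ± 0.086. Over 100 CPM, where these 39 genes stood, 56.4% of all genes fell.

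Cytosolic heat shock genes moved both ways. Of 19 tested 7 fell and 3 rose (median -0.28). Among the falls were constitutive chaperone genes: hsp-1, an HSP70, from 3847, 3318 and 3602 to 2493, 2492 and 2227 CPM (log2 -0.58 ± 0.071), hsp-110 by 0.74 ± 0.089 and the co-chaperone gene sti-1 by 0.54 ± 0.069. hsp-90 fell by 0.48 ± 0.10 (edgeR adjusted p = 0.0117), a call lost under some scalings. The 3 that rose were small heat shock genes of low level. hsp-12.2 went from 4.64, 5.92 and 4.46 to 9.87, 12.0 and 8.95 CPM (log2 1.03 ± 0.13), hsp-12.3 changed by 1.32 ± 0.21 and hsp-12.6, known as a DAF-16 target, by 1.25 ± 0.25. The hsp-12.6 groups overlapped, since vector replicate 3 (1.74 CPM) lay above RNAi replicates 1 and 2.

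Mitochondrial chaperone genes fell. Of 11 genes of the mitochondrial unfolded protein response, which senses damage in that organelle, 4 fell and 2 rose (median -0.19). Over 100 CPM 4 of 6 of them fell, beside 56.4% of all genes. hsp-60 stood at 539.6, 442 and 496 CPM on vector and 276, 279 and 216 CPM under RNAi (log2 -0.95 ± 0.10, edgeR adjusted p = 0.00329). hsp-6, the mitochondrial HSP70 and usual reporter of the response, went from 1232, 991 and 1049 to 707, 623 and 639.8 CPM (log2 -0.73 ± 0.060), and the protease gene spg-7 changed by -0.85 ± 0.10. None of the 3 overlapped between groups, and all 3 fell under all 4 scalings. The transcription factor gene dve-1 (0.39 ± 0.12) and the import channel gene timm-23 (0.33 ± 0.089) rose, though not under all 4 scalings, and no gene of the list rose without pair 1 or without pair 3. In the endoplasmic reticulum the 21 unfolded protein response genes had 7 falls and 1 rise, with a median of -0.12 that turned positive with upper-quartile factors and library totals. Over 100 CPM 37.5% of 16 of these genes fell, under the 56.4% of all genes there. hsp-4, the BiP homologue, fell by 0.49 ± 0.060 and the disulfide isomerase gene pdi-1 by 0.44 ± 0.069, while the X-linked isomerase gene pdi-2 rose by 0.55 ± 0.12.

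Genes that make protein did not all move alike. Of 31 aminoacyl-tRNA synthetase genes, which charge tRNAs, 18 fell and none rose (median -0.30; 8 fell under all 4 scalings), with kars-1 at -0.53 ± 0.066 and mars-1 at -0.56 ± 0.073. Of 37 translation factor genes 21 fell and 1 rose (median -0.28; 10 fell under all 4 scalings). eif-3.E, an initiation factor subunit gene, went from 258, 239.6 and 222 to 156, 165 and 131 CPM (log2 -0.67 ± 0.076), and the germline cap-binding gene ife-3 changed by -0.58 ± 0.062. Over 100 CPM 88.9% of 18 synthetase and 65.4% of 26 factor genes fell, beside 56.4% of all genes. Without pair 1 the falls were 8 synthetase and 10 translation factor genes. Cytosolic ribosomal protein genes stood against this. Of 79 tested none fell and 5 rose, at a median of 0.13 close to the 0.14 of all genes, although 76 of them stood over 100 CPM. Their count of rises followed the scaling: 3 with RLE factors, where 2 fell, 54 with upper-quartile factors and 66 with library totals. Without pair 2 it was 40.

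**Figure D4:**
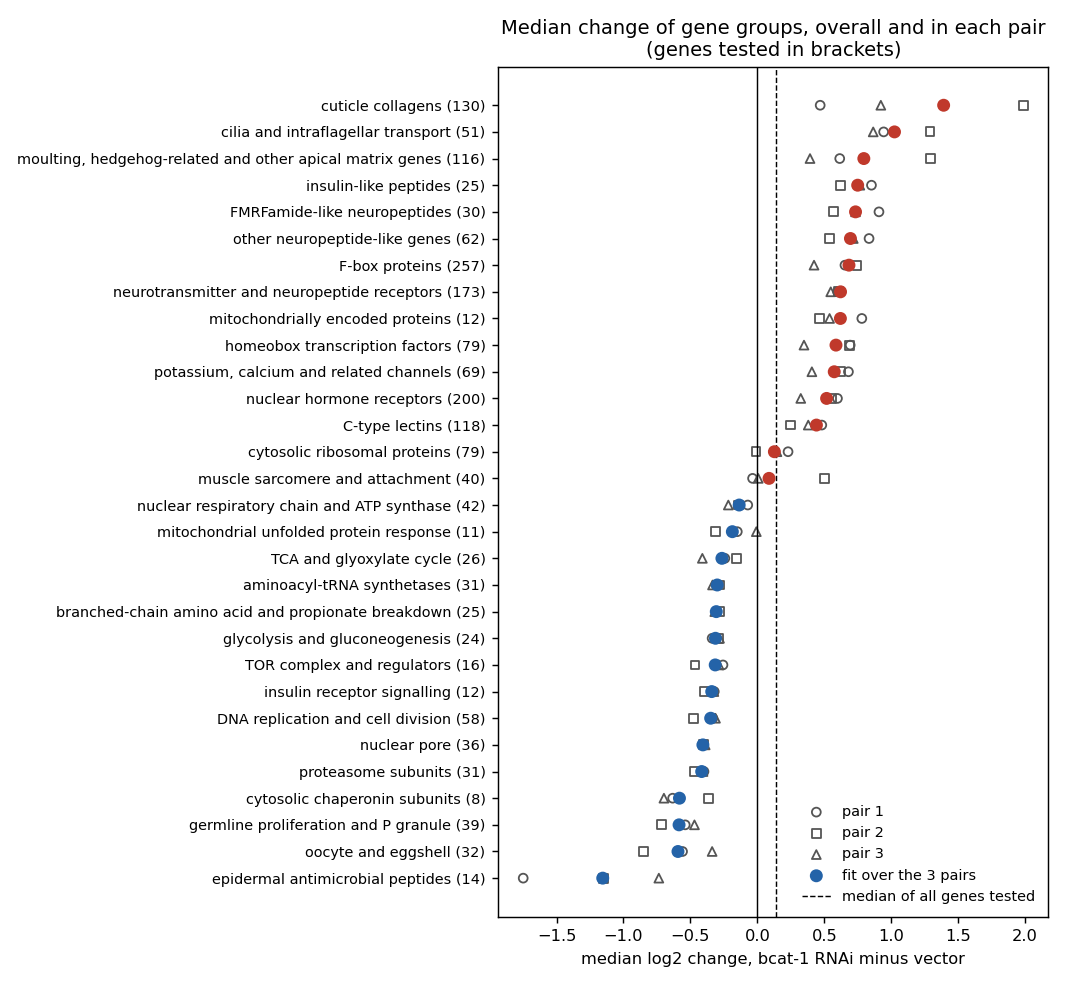
Median log2 change (bcat-1 RNAi minus vector) of 30 gene groups, from the fit over 3 pairs (filled) and in each pair (open), with the number of genes tested in brackets; the dashed line marks the median of all genes. Germline, oocyte, chaperonin and proteasome groups lie left of 0 in every pair, while neuropeptide, cilia and collagen groups lie right of it, the collagens between 0.47 and 1.99.

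A few pairs of gene copies, 1 on an autosome and 1 on X, are set side by side as examples chosen after their values were seen. The translation elongation factor gene eef-1A.1 (chromosome III) fell from 14286, 12279 and 13369 to 12218, 11209 and 10505 CPM (log2 -0.23 ± 0.063), a call lost under some scalings. Its X-linked copy eef-1A.2 rose from 529, 553 and 619 to 816, 1112 and 734 CPM (0.63 ± 0.13). The X-linked ribosomal protein copies rpl-11.2 (178, 188 and 169 to 305, 339 and 271 CPM; log2 0.77 ± 0.069) and rpl-25.1 (0.69 ± 0.086) were the largest rises of their list. In the respiratory chain asb-1, a germline ATP synthase subunit gene on chromosome III, fell from 396, 360.4 and 359.6 to 259.7, 244 and 221 CPM (-0.62 ± 0.065), and its X-linked copy asb-2 stood at 114, 127 and 102 and 153, 168 and 103 CPM (0.28 ± 0.10, not called). ucr-2.3 (chromosome III, complex III) fell by 0.61 ± 0.089 and X-linked ucr-2.1 rose by 0.48 ± 0.11, while of the succinate dehydrogenase copies sdha-2 (chromosome I) fell by 0.73 ± 0.073 and X-linked sdha-1 was not called (-0.042 ± 0.12). Reads that fit both copies could be split by the counting in a way the notes do not give.

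Genes of central metabolism fell more often than they rose. Of 24 glycolysis and gluconeogenesis genes 12 fell and 2 rose (median -0.31; 9 fell under all 4 scalings and 7 without pair 1), with enol-1, enolase, at 906, 798 and 761 CPM on vector and 632, 543 and 544 CPM under RNAi (log2 -0.52 ± 0.058). The pyruvate kinase gene pyk-1 fell by 0.62 ± 0.060 and gpd-4, a glyceraldehyde phosphate dehydrogenase gene with a near-identical copy, by 0.82 ± 0.088. pygl-1, glycogen phosphorylase, went from 1346, 1116 and 1096 to 785, 639.6 and 689 CPM (log2 -0.75 ± 0.061, edgeR adjusted p = 0.00324). gfat-1, the entry enzyme of the hexosamine pathway, went from 676, 618 and 569.8 to 415, 357 and 338 CPM (-0.75 ± 0.060). Neither overlapped between the groups. Of 26 tricarboxylic acid cycle genes 11 fell and 2 rose (median -0.27). Over 100 CPM 83.3% of 12 glycolysis genes and 57.9% of 19 cycle genes fell, beside 56.4% of all genes, so the cycle genes fell at the rate of their level. The malate dehydrogenase genes mdh-1 (-0.61 ± 0.065) and mdh-2 (-0.66 ± 0.070) fell, and the risers aco-1 (0.52 ± 0.13) and idh-2 (0.42 ± 0.13) are both X-linked. Neither rise was kept without pair 1, where 9 cycle genes fell and none rose. With RLE factors 1 cycle gene rose.

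The tested genes of the pathway that bcat-1 opens had falls at about the rate of their level. The list entries BCKD-1A, BCKD-1B, MCCC-2 and HMGL-1 matched no gene, so the pathway was read only in part. Of 25 genes of branched-chain amino acid and propionate breakdown 12 fell and 4 rose, bcat-1 among the latter (median -0.31; 5 fell with library totals and 4 without pair 1). Of the 15 members over 100 CPM 9 fell, beside 56.4% of all genes there. dld-1, the shared lipoamide dehydrogenase subunit of the keto acid dehydrogenase complexes, went from 285, 251 and 243 to 204, 201 and 149.6 CPM (log2 -0.50 ± 0.088). The thiolase gene kat-1 changed by -0.53 ± 0.087 and the acyl-CoA dehydrogenase gene acdh-3 by -0.56 ± 0.076. alh-8, a methylmalonate semialdehyde dehydrogenase gene of valine breakdown, rose by 0.26 ± 0.066, a call not kept under all 4 scalings. acdh-2 rose most, from 0.399, 0.314 and 0.348 to 0.823, 1.62 and 1.46 CPM (1.87 ± 0.32), at a level under 2 CPM in every library.

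Transcripts made inside mitochondria went up while the nuclear genes of the respiratory chain did not. Of 12 mitochondrially encoded proteins 9 rose under every scaling and none fell (median 0.62). COX3, a cytochrome oxidase subunit, stood at 1045, 1011 and 1368 CPM on vector and 1772, 1306 and 1982 CPM under RNAi (log2 0.55 ± 0.083, edgeR adjusted p = 0.00509). Within each pair the RNAi library was higher, but RNAi replicate 2 lay below vector replicate 3. ND1, a complex I subunit, went from 208, 229 and 272 to 354, 289.8 and 396 CPM (0.55 ± 0.091) with no overlap. Of 42 nuclear genes of the chain 13 fell and 3 rose, with a median of -0.14 that turned to 0.024 with library totals. Of the nuclear set 25 fell with RLE factors, 5 with library totals, 6 without pair 1 and 21 without pair 2. Over 100 CPM 41.4% of 29 fell, beside 56.4% of all genes.

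Yolk and fat genes moved both ways. Of the vitellogenins, yolk proteins made in the gut, vit-2 rose from 8367, 7759.7 and 6753 to 12370.0, 11736 and 9459.7 CPM (log2 0.55 ± 0.056, edgeR adjusted p = 0.00327), and vit-5 fell from 7368, 5773 and 6341 to 4639, 4713 and 4637 CPM (-0.47 ± 0.080, adjusted p = 0.00665). Neither gene overlapped between groups, though vit-5 has close copies whose reads the counting could divide. Fatty acid synthesis was the abundant metabolic list that rose: of 22 genes 11 rose and 2 fell (median 0.34; 9 rose under all 4 scalings), and 10 of the 15 members over 100 CPM rose, where 4.71% of all genes did. elo-5 and elo-6, elongases needed for monomethyl branched-chain fatty acids that are built from leucine, went from 74.4, 109 and 57.5 to 154, 158 and 123 CPM (0.89 ± 0.12) and from 79.7, 117 and 53.9 to 192, 188 and 114.97 CPM (1.01 ± 0.12). In elo-6 the vector library of pair 2 was just above the RNAi library of pair 3. The desaturase gene fat-2 rose by 0.35 ± 0.062 and fat-6 by 0.39 ± 0.061, while fat-7 fell by 0.79 ± 0.25 (edgeR adjusted p = 0.0437), a call lost under some scalings. Without pair 1 the rises were 6.

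Genes of lipid breakdown moved both ways. The lysosomal lipase gene lipl-5 went from 174, 254 and 146 to 492, 418 and 279 CPM (log2 1.05 ± 0.14). hacd-1, a hydroxyacyl-CoA dehydrogenase gene, rose from 47.1, 101 and 24.6 to 236, 255 and 125 CPM (1.99 ± 0.20, edgeR adjusted p = 0.00327) and the alcohol dehydrogenase gene adh-1 from 74.6, 169 and 89.4 to 499, 443 and 255 CPM (1.87 ± 0.25). In both, the vector library of pair 2 was the highest of its group and still under the lowest RNAi library. The triglyceride lipase gene atgl-1 fell by 0.50 ± 0.080 and lips-11 from 43.3, 54.3 and 58.5 to 16.9, 21.3 and 22.7 CPM (-1.36 ± 0.10). The carnitine palmitoyl transferase genes cpt-4 (23.7, 24.3 and 30.5 to 2.73, 6.45 and 6.62 CPM; -2.39 ± 0.24) and cpt-3 (-2.57 ± 0.40), of fatty acid import into mitochondria, were among the 10 largest falls that the 12-library fit without the block had missed.

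Those 10 also held F48C1.9, the largest fall of all (12.9, 4.64 and 21.3 to 1.06, 0.670 and 2.14 CPM; log2 -3.27 ± 0.20, edgeR adjusted p = 0.00239), with adjusted p = 0.0568 in that fit. ora-1 fell by 2.85 ± 0.44, the flavin monooxygenase gene fmo-3 by 1.81 ± 0.28, vglu-3, a vesicular glutamate transporter homologue, by 1.96 ± 0.25 and fip-5 by 1.86 ± 0.19. Vector replicate 2 was the lowest of its group in each of these 5 genes. The opposite set, the 10 largest rises that fit had missed at a mean of 5 CPM or more, held hacd-1 and adh-1, the linker histone genes hil-3 (26.2, 18.96 and 41.5 to 99.7, 101 and 80.5 CPM; log2 1.76 ± 0.26) and his-24 (1.60 ± 0.25), the bZIP gene zip-8 (1.78 ± 0.17) and the homeobox gene unc-39 (5.37, 4.47 and 6.89 to 18.5, 21.3 and 16.2 CPM; 1.75 ± 0.21). A further linker histone gene, hil-7, rose from 10.2, 8.60 and 17.5 to 52.5, 80.4 and 63.9 CPM (2.48 ± 0.25), while hil-8, of low level, fell by 1.14 ± 0.22. C08F1.10 (1.58 ± 0.27), F43H9.4 (1.79 ± 0.24), col-121 (1.58 ± 0.37) and cpg-24 (1.71 ± 0.31) complete the 10. Of the falls, the remaining 3 are peptide genes of the epidermis described further on.

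Transcripts of signalling genes upstream of the missing DAF-16 were lower too where called. Of 12 insulin receptor signalling genes 8 fell and none rose (6 under all 4 scalings; median -0.34). The PI3 kinase gene age-1 went from 144, 126 and 125 to 106, 95.9 and 96.3 CPM (log2 -0.41 ± 0.075, edgeR adjusted p = 0.0083), with no overlap between the groups. The kinase gene pdk-1, which is X-linked, fell by 0.62 ± 0.11 and the receptor gene daf-2, picked after its value was seen, by 0.55 ± 0.10. Of 16 genes of the TOR complexes and their regulators 9 fell (4 under all 4 scalings; median -0.32), with the kinase gene let-363 at -0.39 ± 0.076 and its substrate gene rsks-1, the S6 kinase, at -0.56 ± 0.10. Without pair 1 the falls were 4 in the insulin list and 2 in the TOR list. Over 100 CPM all 5 insulin signalling and all 7 TOR genes fell, beside 56.4% of all genes. At 20 to 100 CPM 2 of 4 insulin signalling and 2 of 9 TOR genes fell, beside 21.0% of all genes.

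Insulin-like ligands went the other way. Of 25 insulin-like peptide genes tested, most under 5 CPM, 15 rose and 2 fell (median 0.75). Under all 4 scalings 12 rose, and without pair 1 7 rose. Rises were 5 of 12 under 1 CPM, 7 of 8 at 1 to 5 CPM and 3 of 4 at 5 to 20 CPM. Among all genes 31.3%, 45.8% and 34.7% rose at these levels. ins-2 rose from 3.52, 3.98 and 6.89 to 25.1, 29.0 and 20.9 CPM (log2 2.42 ± 0.27, edgeR adjusted p = 0.00329) and ins-4 from 0.798, 0.821 and 1.08 to 1.67, 1.65 and 3.87 CPM (1.34 ± 0.24). ins-7, a gut-made agonist of DAF-2, was the clear exception: it stood at 20.5, 23.0 and 23.3 CPM on vector and 8.96, 10.1 and 11.09 CPM under RNAi (-1.15 ± 0.12, adjusted p = 0.00327). Each of its RNAi libraries lay far under every vector library. In the dauer TGF-beta pathway the ligand gene daf-7 rose from 1.41, 2.37 and 1.71 to 3.17, 3.63 and 3.26 CPM (0.89 ± 0.18), and its receptor genes daf-1 (-0.34 ± 0.10) and daf-4 (-0.43 ± 0.10) fell, calls that not all scalings kept. Without pair 1 no gene of the dauer TGF-beta pathway was called in either direction. In the body size branch the ligand gene dbl-1 rose by 0.76 ± 0.15 and the SMAD gene sma-2 by 0.69 ± 0.16. Of 11 genes of that branch 4 rose, and without pair 1 only 1 rose.

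Neuropeptide genes rose. Of 30 FMRFamide-like neuropeptide genes 26 rose and none fell (24 under all 4 scalings; median 0.73), and of 62 other neuropeptide-like genes 39 rose and 1 fell (median 0.69). flp-15 stood at 5.04, 5.58 and 5.15 CPM on vector and 12.4, 14.9 and 13.8 CPM under RNAi (log2 1.38 ± 0.13, edgeR adjusted p = 0.00327), and flp-5 at 6.78, 7.61 and 7.30 and 12.6, 13.5 and 15.1 CPM (0.93 ± 0.13). Values within each group were close and the groups far apart. The single fall was nlp-39, from 11.5, 8.48 and 9.26 to 4.86, 4.41 and 6.04 CPM (-0.93 ± 0.17). Summed over the 30 flp genes, the level was 154, 183 and 179 CPM on vector and 287, 273 and 301 CPM under RNAi. Of 12 flp genes at 1 to 5 CPM 10 rose, and of 16 at 5 to 20 CPM 14 rose, beside 45.8% and 34.7% of all genes at these levels. Leaving out pair 1 left 11 and 14 of the 2 lists called higher.

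Genes of transmitter release had rises and a few falls, while receptor genes were near the background of their level. Of 33 synaptic and neurotransmitter genes 20 rose and 4 fell (median 0.51; 11 rose without pair 1). unc-10, the active zone protein RIM, went from 3.92, 4.85 and 4.90 to 10.6, 12.1 and 15.7 CPM (log2 1.48 ± 0.14) and ida-1, a dense core vesicle protein gene, from 19.7, 20.3 and 25.6 to 37.2, 44.9 and 39.8 CPM (0.90 ± 0.13). The fallers were abundant: tdc-1, tyrosine decarboxylase, fell from 387, 353 and 322 to 255, 182 and 247 CPM (-0.65 ± 0.11), and the endocytosis genes unc-11 (-0.37 ± 0.081) and unc-26 (-0.37 ± 0.10) fell by less, not under all 4 scalings. Of the defining markers, rab-3 rose by 0.82 ± 0.15 and snb-1, at 226, 227 and 231 and 234, 220.1 and 230.4 CPM, was not called. Of 69 channel genes 34 rose and 1 fell (19 rose without pair 1), 41.9% of the 43 at 1 to 5 CPM and 69.2% of the 13 at 5 to 20 CPM, beside 45.8% and 34.7% of all genes. Among the rises were the calcium channel gene unc-2 (11.07, 11.4 and 15.3 to 30.1, 39.3 and 36.5 CPM; 1.49 ± 0.14) and the sodium leak channel partner unc-79 (1.32 ± 0.15). Of 173 neurotransmitter and neuropeptide receptor genes 70 rose and 1 fell (median 0.62; 38 rose without pair 1), the acetylcholine receptor subunit gene acr-8 (2.27 ± 0.23) among the rises. At 1 to 5 CPM 47.6% of 84 receptor genes rose and under 1 CPM 32.5% of 80, beside 45.8% and 31.3% of all genes. Only 110 of 1311 chemoreceptor genes were tested, and 41 rose and 2 fell, with 36.8% of the 87 under 1 CPM higher.

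Homeobox and bHLH genes rose more often than they fell, and the members named here are those of smallest p. unc-86, a POU homeobox gene of touch and other neurons, went from 3.12, 2.85 and 4.52 to 16.02, 26.6 and 19.9 CPM (log2 2.57 ± 0.23, edgeR adjusted p = 0.00327). ceh-10 rose from 1.52, 1.16 and 1.83 to 6.29, 7.96 and 7.23 CPM (2.27 ± 0.21) and ceh-27 from 0.472, 0.604 and 0.664 to 3.29, 3.58 and 4.70 CPM (2.72 ± 0.19). The lowest RNAi library of each of the 3 was more than 3-fold over its highest vector library. The proneural bHLH genes cnd-1 (2.75 ± 0.19), lin-32 (1.99 ± 0.22) and ngn-1 (1.57 ± 0.21) rose too. Of 79 homeobox genes in all 36 rose and 6 fell (median 0.59), the ONECUT gene ceh-39 among the falls (-0.55 ± 0.11), and of 25 bHLH genes 9 rose and 1 fell. Homeobox rises were 12 of 24 under 1 CPM, 11 of 21 at 1 to 5 CPM and 10 of 18 at 5 to 20 CPM. Rises of bHLH genes there were 1 of 5, 5 of 8 and 1 of 4, beside 31.3%, 45.8% and 34.7% of all genes. Among 13 homeobox genes at 20 to 100 CPM 3 rose and 4 fell, and 2 of 3 over 100 CPM fell.

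Cilia genes rose without exception among those called. In worms only sensory neurons carry cilia, which intraflagellar transport builds, and of 51 such genes 40 rose under all 4 scalings and none fell (median 1.02). dyf-7, needed to anchor the growing sensory dendrite, went from 3.66, 2.78 and 5.28 to 16.5, 23.2 and 15.3 CPM (log2 2.25 ± 0.28) and nphp-4, of the ciliary transition zone, from 1.81, 2.58 and 2.94 to 5.83, 7.29 and 6.84 CPM (1.46 ± 0.16). Of 31 members at 1 to 5 CPM 26 rose, beside 45.8% of all genes there, and 36 of the list rose without pair 1. Tubulin genes moved both ways. The touch neuron tubulins mec-7 (5.44, 4.85 and 5.34 to 14.4, 23.3 and 16.08 CPM; 1.76 ± 0.19) and mec-12 (1.42 ± 0.15) and the ciliary tubulin gene tbb-4 (8.63, 7.10 and 9.96 to 35.3, 53.0 and 28.7 CPM; 2.15 ± 0.26) rose. The broadly used tba-2 (2158, 1981 and 1800.1 to 1666, 1493 and 1423 CPM; -0.37 ± 0.056), tbb-1 (-0.51 ± 0.057) and tbb-2 (-0.40 ± 0.059) fell, with the caveat that tubulin genes are close in sequence.

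**Figure D5:**
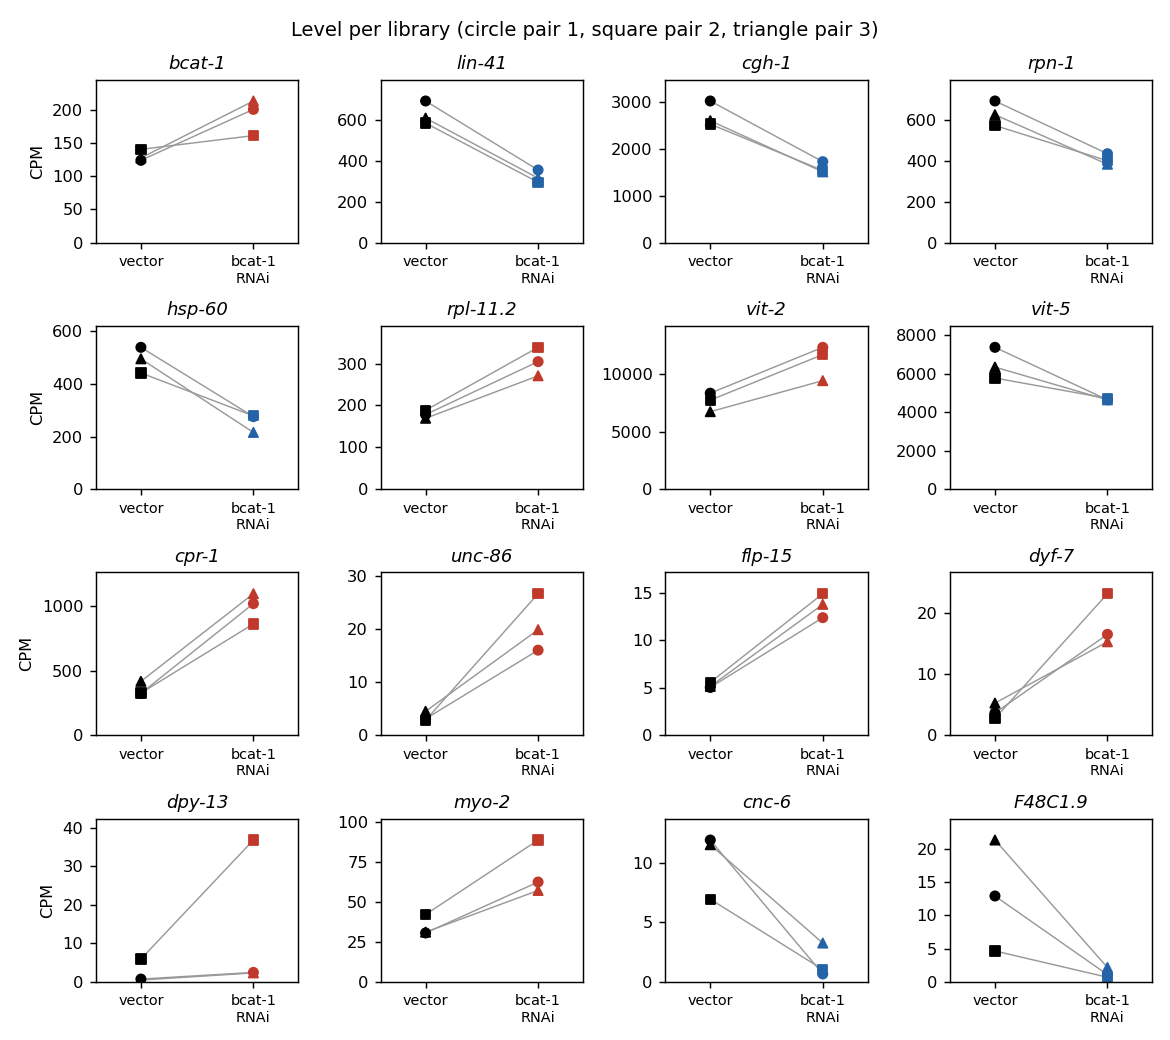
CPM of 16 genes in each of the 6 libraries, from a zero base, with lines joining the vector and RNAi library of a pair; RNAi points are red for genes called higher and blue for genes called lower. lin-41, cgh-1 and rpn-1 fall by similar steps in each pair, flp-15 and unc-86 rise in each, and dpy-13 is high in both libraries of pair 2.

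Cuticle collagens had the highest median of the 77 lists, and it was uneven between pairs. Of 130 cuticle collagen genes 79 rose and 7 fell (75 and 7 under all 4 scalings; median 1.39). The median was 0.47 in pair 1, 1.99 in pair 2 and 0.92 in pair 3, and without pair 2 48 rose and 1 fell. Without the block 18 rose and 1 fell. dpy-13 stood at 0.689, 5.89 and 0.443 CPM on vector and 2.42, 36.8 and 2.29 CPM under RNAi (log2 2.37 ± 0.21, edgeR adjusted p = 0.00327) and dpy-5 at 0.218, 3.60 and 0.221 and 1.06, 24.4 and 1.13 CPM (2.61 ± 0.20). Both libraries of pair 2 were far above the rest, so the groups overlapped although the RNAi library was several-fold higher in each pair. Without the block and without RNAi replicate 2, the log2 changes of dpy-13 and dpy-5 were -0.055 and -0.38. Abundant collagens did the reverse: all 7 that fell stood over 20 CPM, where 4 rose. col-181 fell from 414, 339 and 144 to 113, 135 and 83.0 CPM (-1.34 ± 0.18), col-122 from 258, 210.5 and 97.0 to 85.0, 91.9 and 66.6 CPM (-1.12 ± 0.18) and col-184 by 1.03 ± 0.18. Collagen genes are close in sequence, and the counting of reads that match several is not given. The adult collagen col-19, at 29.8, 31.3 and 14.5 and 14.9, 37.8 and 20.3 CPM, was not called.

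Apical matrix genes outside the collagens mostly rose where called. Of 116 genes of moulting, hedgehog-related and cuticlin families 55 rose and 5 fell (median 0.80, and 43 and 9 without pair 2). Under 1 CPM 41.4% of 29 rose, at 1 to 5 CPM 48.9% of 47 and at 5 to 20 CPM 40.0% of 25. Among all genes 31.3%, 45.8% and 34.7% rose at these levels. From 20 to 100 CPM 63.6% of 11 rose, beside 11.4% of all genes. cutl-29, a cuticlin-like gene, rose from 1.05, 0.918 and 1.45 to 3.29, 5.22 and 3.77 CPM (log2 1.84 ± 0.25) and nas-37, the astacin protease that sheds the old cuticle at moults, from 6.53, 8.65 and 6.93 to 12.3, 18.3 and 13.3 CPM (0.98 ± 0.13). The nuclear receptor gene nhr-25 rose by 1.38 ± 0.25 and nhr-23, a driver of the moulting cycle, fell from 103, 94.9 and 90.6 to 74.3, 58.7 and 71.6 CPM (-0.50 ± 0.10). ptc-1, a patched-family gene known from germline cytokinesis, went from 921, 789.9 and 791 to 504, 462 and 478 CPM (-0.79 ± 0.062, edgeR adjusted p = 0.00311).

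Antimicrobial peptides of the epidermis fell against that trend. Of 14 tested 9 fell and none rose (8 under all 4 scalings; median -1.16), the lowest median of the 77 lists. cnc-6 went from 11.9, 6.95 and 11.5 to 0.653, 1.03 and 3.26 CPM (log2 -2.79 ± 0.41, edgeR adjusted p = 0.00484), cnc-4 from 54.1, 27.6 and 50.3 to 4.67, 6.34 and 17.7 CPM (-2.35 ± 0.36) and nlp-34 from 18.5, 11.0 and 20.05 to 2.396, 2.32 and 7.52 CPM (-2.17 ± 0.28). In all 3 genes RNAi replicate 3 was the highest of its group and vector replicate 2 the lowest of its own. Most members stood at 5 to 20 CPM, where 7.09% of all genes fell. Without pair 2 the number that fell was 2.

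Most muscle genes were not called. Of 40 sarcomere and attachment genes 12 rose and 3 fell, with a median of 0.087 that turned to -0.011 with RLE factors and to -0.083 without pair 2, where 11 rose and 10 fell. Among the rises were both pharyngeal myosin genes, myo-1 from 27.7, 38.7 and 30.5 to 60.6, 89.6 and 57.5 CPM (log2 1.09 ± 0.11) and myo-2 from 30.5, 42.1 and 31.1 to 62.4, 88.7 and 57.1 CPM (1.00 ± 0.10, edgeR adjusted p = 0.00327), as did the pharyngeal troponin gene tnt-4 (1.25 ± 0.14). The body wall myosin genes unc-54 and myo-3 were not called: unc-54 stood at 193, 173 and 129 and 123, 262 and 95.6 CPM (-0.16 ± 0.22) and myo-3 at 32.4, 26.3 and 31.4 and 15.9, 32.1 and 15.5 CPM (-0.59 ± 0.26). Both were higher in RNAi replicate 2 than in the other RNAi libraries. Without pair 2 the changes of unc-54 and myo-3 were called lower, at -0.58 and -1.05. act-2, an actin gene of many tissues with near-identical copies, fell by 0.66 ± 0.073.

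The gut showed no common direction. Of 22 intestinal genes 4 rose and 3 fell (median 0.12). The esterase gene ges-1 went from 18.8, 16.2 and 13.5 to 25.8, 22.7 and 19.3 CPM (log2 0.49 ± 0.11) and the GATA factor gene elt-2 was not called (0.35 ± 0.13). Cathepsin B-like proteases, digestive enzymes of the gut, had large rises: cpr-1 went from 325, 327 and 418 to 1019.7, 863 and 1097 CPM (1.48 ± 0.075, edgeR adjusted p = 0.00239) and cpr-8 from 5.80, 6.59 and 4.55 to 19.6, 14.0 and 10.4 CPM (1.35 ± 0.17), while cpr-9 fell from 514, 505 and 457 to 378, 400.4 and 315 CPM (-0.44 ± 0.067). The aspartyl protease gene asp-6 rose by 0.40 ± 0.071.

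Immune and detoxification families were mixed. Among 118 C-type lectins 37 rises and 15 falls were called (median 0.44), clec-166 rising from 4.03, 5.46 and 4.17 to 16.9, 16.9 and 10.4 CPM (log2 1.67 ± 0.18), clec-91 falling from 365, 384 and 312 to 236, 239.5 and 205 CPM (-0.64 ± 0.063) and clec-146 falling by 1.31 ± 0.15. Over 100 CPM 6 of 9 lectins fell and 2 rose, beside 56.4% and 4.71% of all genes. Genes of the response to pathogens moved both ways. The bZIP gene zip-2 rose from 173, 216 and 227 to 328, 453 and 369 CPM (0.90 ± 0.086, edgeR adjusted p = 0.00327) and the adaptor gene tir-1 by 1.19 ± 0.19, and the PMK-1 target irg-5 fell from 30.1, 14.3 and 42.0 to 5.40, 6.70 and 7.26 CPM (-2.05 ± 0.29). Of 60 glucuronosyltransferase genes 21 rose and 2 fell, and of 47 ABC transporter genes 19 rose and 6 fell, the P-glycoprotein genes pgp-14 (1.16 ± 0.15), pgp-8 (1.21 ± 0.16) and pgp-6 (1.26 ± 0.16) among the rises. The X-linked transporter gene mrp-4 fell from 418, 365 and 320.3 to 219, 190.0 and 179.7 CPM (-0.90 ± 0.065, adjusted p = 0.00244). Of 64 cytochrome P450 genes 12 rose and 11 fell. Without pair 1 the rises were 25 lectin, 10 transferase, 9 transporter and 4 P450 genes. At 1 to 5 CPM 40.0% of 35 lectin and 41.2% of 17 transferase genes rose, beside 45.8% of all genes. Of transporter and P450 genes there 55.6% of 9 and 23.5% of 17 rose. From 5 to 20 CPM, where 34.7% of all genes rose, the shares were 28.0% of 25 lectin and 47.6% of 21 transferase genes. They were 57.1% of 14 transporter and 21.1% of 19 P450 genes. P450 falls at these levels were 17.6% and 21.1%, beside 2.22% and 7.09% of all genes.

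Large regulator families of low level had many rises and few falls. Of 200 nuclear hormone receptor genes 87 rose and 5 fell (median 0.52; 42 and 0 without pair 1), nhr-168 going from 4.54, 4.13 and 7.37 to 13.8, 12.0 and 14.1 CPM (log2 1.35 ± 0.17) and nhr-114 from 8.67, 8.43 and 7.11 to 15.8, 18.2 and 13.4 CPM (0.96 ± 0.13). Of 257 F-box genes, which pick substrates for ubiquitin ligases, 118 rose and 8 fell (median 0.68; 78 and 2 without pair 1), opposite to the proteasome subunits in direction and in level. At 1 to 5 CPM 36 of 69 receptors and 73 of 124 F-box genes rose, beside 45.8% of all genes. Under 1 CPM 32.4% of 74 F-box genes rose and from 5 to 20 CPM 45.2% of 42, beside 31.3% and 34.7%. Of 16 F-box genes at 20 to 100 CPM 2 rose and 4 fell. fbxa-24 went from 3.45, 4.27 and 4.43 to 8.96, 8.69 and 12.5 CPM (1.30 ± 0.16).

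Nuclear pore genes fell nearly throughout, while splicing and secretory genes did not stand out from their level. Of 36 nuclear pore and transport genes 31 fell and 1 rose (23 fell under all 4 scalings; median -0.41), with npp-9 at 985, 865 and 873 CPM on vector and 615, 537 and 561 CPM under RNAi (log2 -0.67 ± 0.058, edgeR adjusted p = 0.00327) and npp-14 at -0.56 ± 0.063. Of 50 splicing genes 20 fell and 1 rose (9 fell under all 4 scalings; 8 without pair 1), and of 67 secretory pathway genes 29 fell and none rose (14 under all 4 scalings; 9 without pair 1). Over 100 CPM 30 of 32 nuclear pore, 18 of 40 splicing and 25 of 43 secretory genes fell, beside 56.4% of all genes. sec-61.A, the translocation channel gene, fell from 774, 747 and 663 to 538, 569.6 and 435 CPM (-0.51 ± 0.067). In the Mediator complex the X-linked gene dpy-22 rose by 0.48 ± 0.088 and sur-2 fell by 0.47 ± 0.074. clu-1, a gene needed for even mitochondrial spread in cells, fell from 345, 297 and 316 to 184, 176 and 167 CPM (-0.86 ± 0.069). Among rises of under 2-fold, anc-1, which anchors nuclei and mitochondria, went from 45.4, 60.3 and 55.4 to 103, 111 and 104 CPM (0.99 ± 0.10) and the cadherin gene cdh-4 from 139, 158 and 175 to 284, 339 and 269.8 CPM (0.92 ± 0.10).

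Small RNA genes fell at about the rate of their level. Of 47 tested 22 fell and 3 rose (13 fell under all 4 scalings; median -0.26; 11 fell without pair 1). Over 100 CPM 59.3% of 27 fell, beside 56.4% of all genes and 93.1% of the germline list. csr-1, the germline Argonaute that protects expressed genes, went from 482, 388 and 455 to 284, 267 and 253 CPM (log2 -0.72 ± 0.079) and wago-4, an Argonaute of inherited RNAi, from 241, 224 and 234 to 143, 129 and 139 CPM (-0.77 ± 0.067). The polymerase gene ego-1 fell by 0.71 ± 0.071, and another RNA-dependent RNA polymerase gene, rrf-2, rose from 21.7, 37.7 and 32.2 to 54.8, 78.5 and 55.4 CPM (1.06 ± 0.13). Of 7 genes for uptake and spread of double-stranded RNA only rsd-6 fell (-0.38 ± 0.066, edgeR adjusted p = 0.00719), and their median of -0.10 turned positive with upper-quartile factors and library totals.

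Non-coding and pseudogene transcripts rose more often than they fell. Of 548 pseudogenes tested 212 rose (38.7%) and 14 fell, of 46 lincRNA genes 23 rose and none fell, and of 71 other non-coding RNA genes 25 rose and 2 fell. tts-1, a long non-coding RNA known to bind ribosomes in long-lived mutants, went from 387, 485 and 537 to 788, 769 and 938 CPM (log2 0.83 ± 0.081, edgeR adjusted p = 0.00327). The ribosomal RNA gene rrn-3.1 stood at 1084, 2971 and 1343 CPM on vector and 2315, 9504 and 6613 CPM under RNAi (1.69 ± 0.20), with vector replicate 2 above RNAi replicate 1. Its call was lost in 11 of 19 alternatives. The median level of the pseudogenes was 1.27 CPM, within the range where 45.8% of all genes rose.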

How the data were processed

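RNA of whole worms was sequenced as TruSeq RNA Library Preparation Kit v2 libraries, per the labels' protocols. The authors deposited whole-number counts per gene. The submitters' processing notes name the genome WBcel235 and the tools featureCounts 1.4.6-p4, bcl2fastq 1.8.4 and STAR 2.4.1d. How multi-mapping reads and strand were treated is not given in the sources used here. Gene names came from Ensembl release 115, which held 46449 of the 46748 identifiers.

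The counts of the 6 libraries were fitted with edgeR 4.0.16 in R 4.3.3: TMM factors, low counts removed by group (filterByExpr), dispersions and a robust quasi-likelihood F test with pair as a block, 2 residual degrees of freedom, and Benjamini-Hochberg adjustment over 15124 genes at 0.05. The SE is the log2 change divided by the root of F. CPM values use TMM-scaled totals. The fit was tested on data simulated from its own model, with few changed genes and as many higher as lower. Such data cannot test the choice of scaling. Alternatives used other scalings, filters, no block, all 12 libraries, DESeq2 1.42.0, limma 3.58.1 (voom), and left out each pair or library. Genes called under all 4 scalings passed with TMM, RLE, upper-quartile and total-count factors.

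The labels do not state the pairing. Deviations from the group means correlated at 0.406, 0.333 and 0.207 between the libraries of pairs 1, 2 and 3, and at -0.332 to 0.03 in other combinations. Deviations cancel out within each group, so positive values within pairs push the others down. The contrast is thus partly fixed in advance.

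The 77 gene lists, the pairs and the genes compared were chosen with earlier results of these data known. Lists carry no test. Of 994 list entries 28 matched no gene. Named genes are bcat-1 and daf-16, cell type markers, the 10 largest changes per direction that the 12-library fit without the block had missed (mean of 5 CPM or more, no overlap), the 10 most abundant called genes per direction, the 10 of smallest p among changes under 2-fold at 20 CPM or more, and up to 3 called members per list and direction by smallest p; the text names part of them. Library depth sets a small counting error for most genes here. An SE covers the spread left after the pair block, estimated in part from other genes, and not the spread between pairs.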

Additional observations from a re-analysis of the deposited data

How the results depend on the processing

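Of 199 genes named, 190 were called, and 127 of these kept their direction and their side of the threshold in every alternative except the fit of all 12 libraries without the replicate block, where 160 calls were lost. That fit called 694 genes higher and 24 lower and gave bcat-1 a log2 change of 0.51 that was not called. The 6-library fit without the replicate block called 3628 higher and 2488 lower, of which 3420 and 2373 were called with it, and the 12-library fit with the block called 4275 and 3081. The block ended the call of 13 named genes when it was dropped. DESeq2 with the block called 1999 genes higher and 3563 lower. The count of lower genes was 1533 with upper-quartile factors and 1285 with library totals. Leaving out 1 pair gave 2461 to 4423 higher and 1052 to 3212 lower genes, and a log2 change of bcat-1 of 0.45 to 0.68. Leaving out 1 library without the block gave 1725 to 3368 and 1222 to 2698 genes, and 0.45 to 0.66. The lowest counts of genes in each direction were those without pair 1 and without vector replicate 1, and the cause was not tested. Of the 77 list medians 13 changed sign with the scaling, and 4, 7 and 3 without pair 1, 2 and 3.

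Reversals were limited to 6 named genes. Of the uncalled ones, col-19 was at 0.065 with upper-quartile factors and 0.089 with library totals, sdha-1 at 0.094 and 0.12 and snb-1 at 0.14 and 0.16, and snb-1 at 0.033 when 10 counts were required in every library. With 1 pair left out the log2 changes ran from -0.35 to 0.36 for col-19, from -0.22 to 0.090 for sdha-1, from -0.037 to 0.00050 for snb-1 and from -0.58 to 0.071 for unc-54. Without the block, the reversed log2 changes of col-19 were 0.092, 0.20, 0.12 and 0.049 without vector replicate 1, RNAi replicate 1, vector replicate 2 and RNAi replicate 3, those of sdha-1 were 0.012 and 0.12 without vector replicate 1 and RNAi replicate 3, that of snb-1 was 0.020 without RNAi replicate 2, and those of unc-54 were 0.089, 0.11 and 0.21 without vector replicate 1, RNAi replicate 1 and RNAi replicate 3. dpy-13 and dpy-5 reversed to -0.055 and -0.38 without the block and without RNAi replicate 2. With 2 residual degrees of freedom and genes under 1 CPM, small changes of low genes were not detectable at this depth.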
